A study of Homo sapiens with 2 samples.

Results

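SQSTM1, which encodes the autophagy receptor p62, was examined together with 5 genes whose proteins bind p62 or serve beside it as receptors: KEAP1, CYLD, OPTN, PHB2 and BNIP3. These 6 genes were taken by symbol from the 14884 genes that the array annotation names. Each was read by 1 probe set with a single gene symbol, so no further probe set was left to report.

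The samples were A549 cells, an established human lung adenocarcinoma line, grown under standard conditions and transfected with an siRNA. One group received a control siRNA (siCONTROL) and the other an siRNA against p62/SQSTM1 (siP62). Total RNA was taken from both after 24 hours and 100 ng of it was labelled for an Affymetrix whole-transcript array. Each group held 1 array, so no value has a replicate error and no difference could be tested. The sources used here do not give the sequence, number or dose of the siRNAs. A549 is known, as background, to carry an inactivating KEAP1 mutation and to have active NRF2, which both groups would share.

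Selective autophagy removes damaged proteins and organelles by means of receptors that hold the cargo on one side and the LC3 and GABARAP proteins of the growing autophagosome on the other. p62 binds ubiquitin chains and polymerises into droplets, and it also binds KEAP1, the adaptor through which the CUL3 ubiquitin ligase degrades the antioxidant transcription factor NRF2. OPTN carries ubiquitinated mitochondria and bacteria. PHB2 and BNIP3 are mitochondrial membrane proteins that bind LC3 themselves, and CYLD is a deubiquitinase that restrains NF-kB and is brought to its substrate TRAF6 by p62.

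Some genes of this group are known to answer to stress-responsive transcription factors. The RefSeq promoter windows of GRCh38.p14 were therefore searched on both strands for 4 motifs. Each window ran from 250 bases before to 50 after a listed start site, 300 bases in all. The stretches that hold a match are shown to give the letters around it, and whether they control these genes was not tested. Capitals mark the matched letters, and every stretch is written 5′ to 3′ on the gene's own strand. A match is only a description of the letters. KEAP1 held the core of the antioxidant response element read by NRF2, TGACNNNGC, at 2 places before 1 of its 2 start sites, and 30 bases about the first match lie at chr19:10502806-10502835 on the minus strand.
KEAP1: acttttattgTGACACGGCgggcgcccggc
CYLD, at chr16:50741836-50741955 on the plus strand, held the same core directly followed by an NF-kB consensus, both upstream of the first of its 3 start sites, and a further NF-kB match lay at another of these start sites.
CYLD: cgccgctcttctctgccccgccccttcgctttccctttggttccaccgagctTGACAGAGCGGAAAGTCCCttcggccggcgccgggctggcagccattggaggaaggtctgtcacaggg
OPTN, at chr10:13099962-13100081 on the plus strand, held the NF-kB consensus on both strands of a single site just before the first of its 2 start sites.
OPTN: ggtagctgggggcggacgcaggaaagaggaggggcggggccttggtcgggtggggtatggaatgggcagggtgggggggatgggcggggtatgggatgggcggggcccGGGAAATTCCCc
BNIP3, at chr10:131981998-131982117 on the minus strand, held CACGTG, the E-box read by TFEB, which contains the hypoxia response element core ACGTG on each strand.
BNIP3: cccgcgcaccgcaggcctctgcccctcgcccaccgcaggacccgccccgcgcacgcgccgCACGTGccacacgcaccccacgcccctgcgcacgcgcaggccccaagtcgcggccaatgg
None of the 4 motifs was found in the 3 windows of SQSTM1 or the 2 of PHB2. This says only that these letters are not there, and bases outside the windows were not searched. Of all 35116 windows, 13.3% held TGACNNNGC, 21.4% ACGTG, 7.26% CACGTG and 5.91% the NF-kB consensus. Counted by gene, with a match in any window, the shares of 27305 genes were 16.1%, 24.9%, 8.77% and 7.09%. Such matches are therefore not particular to these genes.

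Genes were kept for comparison where at least 1 of the arrays reached a log2 level of 5.35, which is the median over the named probe sets of both arrays. All 6 genes passed, among 7896 kept genes. Over the kept genes the median difference, siP62 minus siCONTROL, was 0.04 on the log2 scale with a robust SD of 0.22. This SD is taken across genes and does not stand for a replicate error. Of the 5 A549 markers named on the array, all were kept, with differences from -0.36 (TXNRD1) to 0.21 (EPCAM) and with KRT18 at 11.95 and 11.97 and EPCAM at 7.38 and 7.59 in the siCONTROL and siP62 arrays. Of 11 markers of leukocytes, fibroblasts, endothelium and neurons on the array, 5 lay below the limit, DCN (2.18 and 2.13), LYZ (3.02 and 3.06) and PECAM1 (2.92 and 3.14) among them. The 6 kept ones included CD68, which is not restricted to leukocytes, at 8.48 and 8.42. The others were CD14 (5.98 and 5.94), SYP (6.25 and 6.32), MAP2 (5.81 and 6.06), LUM (5.02 and 5.49) and CLDN5. Most of these markers thus passed the limit, so the limit does not by itself mark a gene as belonging to this line. CLDN5 had the largest difference of the 11 at 0.63, from 4.84 below the limit to 5.47. The 5 control genes on the array differed by between -0.08 (B2M) and 0.20 (PPIA).

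SQSTM1 and CYLD were each more than 2-fold lower in the siP62 array, whereas the other 4 genes differed by less than 1.5-fold. Among the 6, KEAP1, OPTN and BNIP3 were slightly lower and PHB2 was slightly higher in the siP62 array. Being 2-fold lower was rare over the array, at 0.228% of the kept genes, against 2 of these 6; one of the 2 is the target of the siRNA, and the genes were chosen with earlier results known. A lower value of any size was common, at 41.8% of the kept genes, against 5 of the 6, and 55.4% of the kept genes were higher, against 1 of the 6. In RNA from a whole culture, fewer cells that express a gene and less RNA per cell cannot be told apart.

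**Figure D1:**
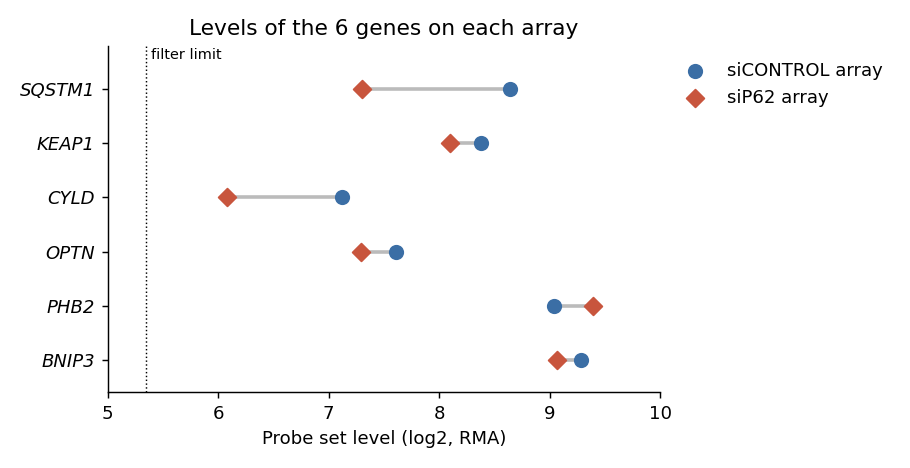
Log2 probe set level (x axis) of each of the 6 genes (rows) on the siCONTROL array (circles) and the siP62 array (diamonds), 1 array per group; the dotted line is the filter limit of 5.35. Compare positions within a row only, since probe sets of different genes do not share a scale; SQSTM1 runs from 8.64 to 7.30 and CYLD from 7.12 to 6.08, and PHB2 alone has its siP62 value on the right.

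SQSTM1, the target of the siRNA and the check of the labels, gave a log2 level of 8.64 with the control siRNA and 7.30 with siP62. The siP62 array was the low one, as its label says. The difference was -1.34 on the log2 scale, which leaves 39.5% of the control level. Only 2 of the 7896 kept genes had a lower difference, and all 394 other genes in its bin of like mean level (1 of 20 bins) differed less in that direction. The central 95% of that bin ran from -0.43 to 0.58, and its robust SD was 0.19. The 3 genes whose difference lay closest to that of SQSTM1 over these 2 arrays were HSDL2 (-1.44), THOC7 (-1.19) and MIR3190 (-1.51). With 2 arrays this likeness says only that single differences were of similar size. MIR3190 went from 6.28 to 4.77, the latter below the filter limit, and its further probe sets differed by -0.92 and -0.42.

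CYLD, the deubiquitinase, gave a log2 level of 7.12 with the control siRNA and 6.08 with siP62. The difference of -1.04 on the log2 scale leaves 48.6% of the control level. Its difference passed the 2-fold limit narrowly, and only 12 kept genes had a lower one. All 394 other genes of its bin differed less in that direction, with a central 95% from -0.49 to 0.54 and a robust SD of 0.22. Between SQSTM1 and CYLD the differences were 0.30 apart. Both of its values lay above the filter limit.

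KEAP1, the repressor of NRF2 and a direct ligand of p62, gave a log2 level of 8.38 with the control siRNA and 8.10 with siP62. The siP62 value was lower, with a difference of -0.28 that corresponds to 82.4% of the control level. In its bin of 394 genes, 31 had a lower difference and 95 others differed by as much in either direction. A difference of this size was therefore ordinary for genes of this level.

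OPTN, the fellow receptor of ubiquitinated cargo, gave a log2 level of 7.61 with the control siRNA and 7.29 with siP62. Here too the siP62 value was lower, with a difference of -0.32 or 80.1% of the control level. In its bin of 395 genes, 26 had a lower difference and 73 others differed by as much in either direction, which puts it inside the central 95% of -0.50 to 0.48.

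BNIP3, the hypoxia-inducible receptor of the outer mitochondrial membrane, gave a log2 level of 9.28 with the control siRNA and 9.07 with siP62. The siP62 value was the lower one, with a difference of -0.21, which is 86.5% of the control level. This was the smallest difference among the 6 genes, and 114 others of its 395 bin genes differed by as much in either direction.

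PHB2, the prohibitin of the inner mitochondrial membrane that becomes a receptor once the outer membrane ruptures, was the only one of the 6 that was higher in the siP62 array. It gave a log2 level of 9.04 with the control siRNA and 9.39 with siP62, a difference of 0.35 or 127% of the control level. In its bin of 395 genes, 28 had a higher difference and 44 others differed by as much in either direction. PHB2 and BNIP3, both mitochondrial receptors in the same level bin, thus differed in opposite directions, and their differences were 0.56 apart.

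**Figure D2:**
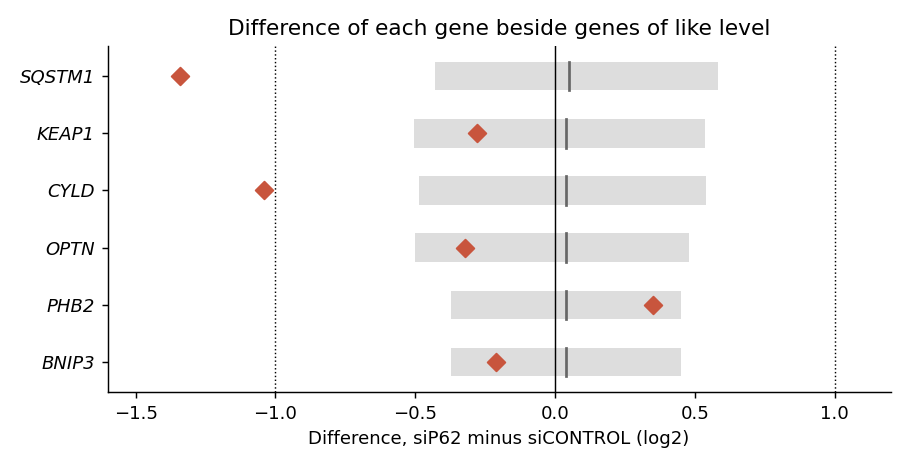
Difference between the arrays, siP62 minus siCONTROL on the log2 scale (x axis), of the 6 genes (diamonds), each over a grey bar for the central 95% and a line for the median of the 394 or 395 genes in its bin of like mean level; dotted lines mark 2-fold. SQSTM1 (-1.34) and CYLD (-1.04) lie left of their bars, and KEAP1, OPTN, PHB2 and BNIP3 lie on theirs.

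**Figure D3:**
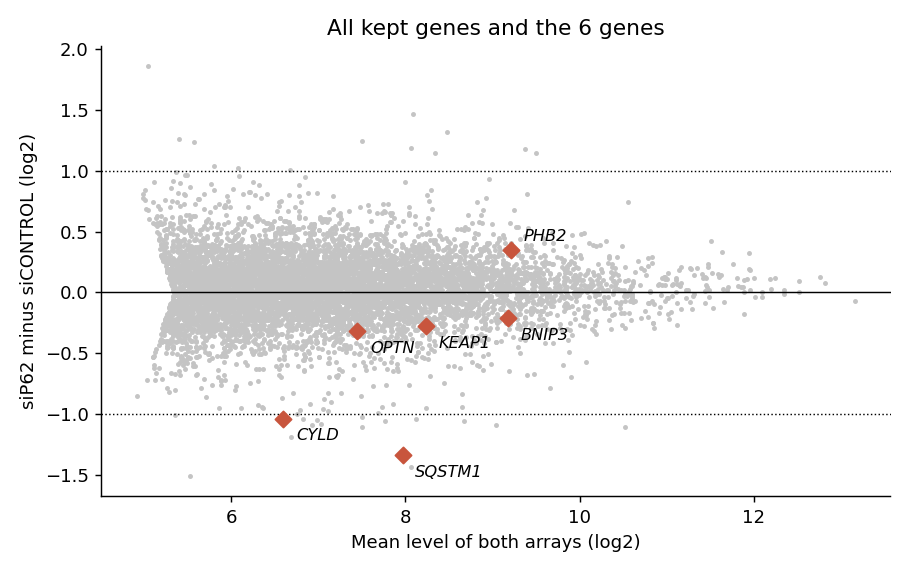
Difference between the arrays (y axis, log2) against the mean of both arrays (x axis, log2) for the 7896 kept genes (grey points) with the 6 genes as diamonds; dotted lines mark 2-fold. Of the kept genes, 18 lie on or below the lower dotted line, SQSTM1 and CYLD among them, and the other 4 members lie within the cloud.

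The surroundings of the 6 genes were read from 7 gene lists with 138 genes in all, of which the array names 98 and 91 passed the limit. Leaving out the 6 genes, 85 remained, 36 of them lower, 45 higher and 4 equal, with a median difference of 0.03 beside 0.04 over all kept genes. None of the 85 was 1.5-fold lower and 2 were 1.5-fold higher, where 1.6% and 2.08% of all kept genes were 1.5-fold lower and higher. SQSTM1 and CYLD were therefore the only genes of these lists past 2-fold.

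**Figure D4:**
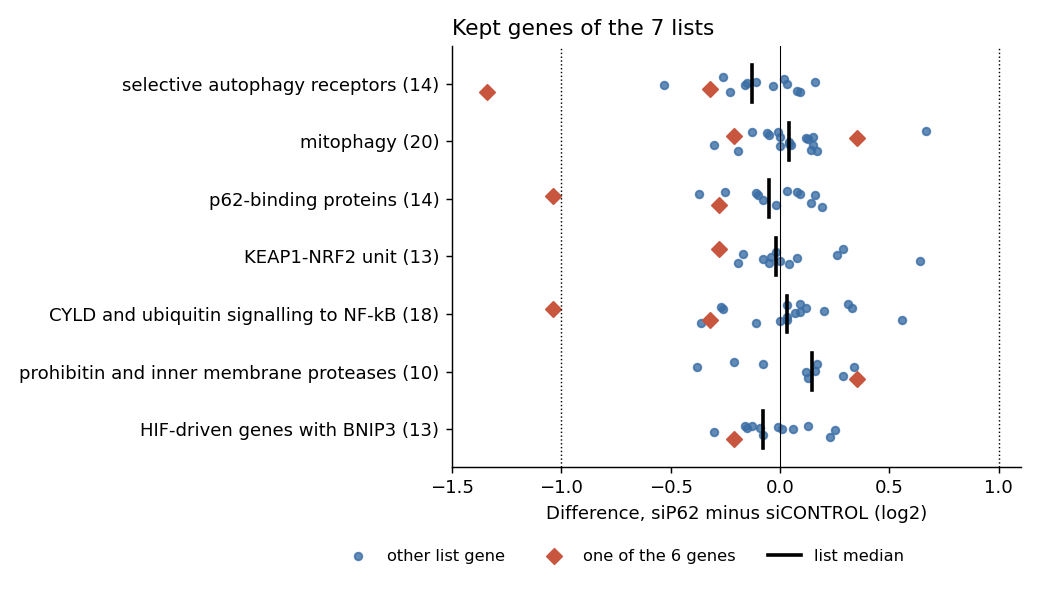
Difference between the arrays (x axis, log2) of each kept gene of the 7 lists (rows, number of kept genes in brackets), with the 6 genes as diamonds, other list genes as circles and a black bar for the list median; vertical scatter within a row only separates the points, and a gene in several lists appears in each. Medians include the 6 genes where listed and run from -0.13 for the selective autophagy receptors to 0.145 for the prohibitin list. The 3 points left of the dotted 2-fold line are SQSTM1 once and CYLD in each of its lists.

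Among the selective autophagy receptors, 14 of the 21 genes of the list were kept, 9 lower and 5 higher. The median difference was -0.13, or -0.07 over the 12 that are not among the 6 genes. After SQSTM1, the lowest was BAG3, a chaperone partner that delivers misfolded proteins to autophagy, which was 1.44-fold lower, from 8.46 to 7.93. CALCOCO2 (NDP52), a receptor for bacteria and mitochondria, followed OPTN with 7.27 and 7.01, a difference of -0.26. TAX1BP1, which clears protein aggregates, differed by -0.11, and NCOA4, the ferritin receptor, by 0.03. NBR1, the relative of p62, was not named on the array and was not analysed here.

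The p62-binding proteins included CYLD and KEAP1, and 14 of the 26 genes of the list were kept, 8 lower and 6 higher. The median was -0.05. Over the 12 that are not among the 6 genes it was 0.005, with 6 lower and 6 higher. Of the autophagosome proteins that hold p62, MAP1LC3A differed by -0.37 on the log2 scale, from 5.77 to 5.40 and so close to the filter limit. GABARAPL2 differed by -0.25, from 8.36 to 8.11, whereas GABARAP differed by 0.09 and GABARAPL1 by -0.02. The relatives thus went both ways. MAP1LC3B lay below the limit at 4.42 and 4.53. The kinases TBK1, which phosphorylates p62 and OPTN, and ULK1, which starts autophagy, differed by 0.03 and 0.19.

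In the KEAP1-NRF2 unit, 13 of 20 genes were kept, 7 lower, 5 higher and 1 equal, with a median of -0.02. Without KEAP1, the other 12 had a median of -0.01. NFE2L2, which encodes NRF2 itself, gave 7.46 with the control siRNA and 7.38 with siP62, a difference of -0.08. CUL3, the ligase scaffold that KEAP1 serves, differed by -0.04. Other proteins known to bind KEAP1 in competition with NRF2 went both ways. PALB2, a DNA repair protein, was 1.56-fold higher in the siP62 array, from 6.91 to 7.55. DPP3, a peptidase, differed by 0.29, from 8.09 to 8.38, and AMER1, a scaffold protein of Wnt signalling, by -0.19. SESN2, a stress-induced protein that works with p62 on KEAP1, differed by 0.26. KEAP1 had the lowest difference of the list.

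Around CYLD, in the list of ubiquitin signalling to NF-kB, 18 of 27 genes were kept, 6 lower, 11 higher and 1 equal. The median was 0.03, or 0.05 over the 16 without CYLD and OPTN, of which 4 were lower and 11 higher. SHARPIN, a subunit of the ligase that builds the linear chains CYLD removes, was 1.47-fold higher in the siP62 array, with 6.67 and 7.23. Its partner subunits RBCK1 and RNF31 differed by only 0.03 and 0.07. BIRC2, a ligase of the TNF receptor complex, and CHUK, a kinase that acts on the NF-kB inhibitor, differed by 0.33 and 0.31. On the lower side were ITCH, a ubiquitin ligase reported to act with CYLD, at -0.36 and OTUD7B, another deubiquitinase that restrains NF-kB, at -0.27. SPATA2, which ties CYLD to that ligase complex, was not named on the array. Its relative SPATA2L differed by -0.26, with 6.25 and 5.99.

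Around PHB2, all 10 genes of the prohibitin and inner membrane protease list that the array names were kept, 3 lower and 7 higher. The median was 0.145, or 0.13 over the 9 without PHB2, of which 3 were lower and 6 higher. PHB2 had the highest difference of the list, followed by CLPB, a disaggregase of the intermembrane space, at 0.34 and STOML2, a prohibitin relative, at 0.29. PHB1, the partner with which PHB2 forms its ring, gave 6.30 and 6.47, a difference of 0.17. AFG3L2, a protease that the prohibitin ring surrounds, went the other way at -0.38, with 8.46 and 8.08. OMA1, the stress-activated protease that cleaves OPA1, differed by -0.21.

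Around BNIP3, the list of mitophagy genes had 20 of 25 genes kept, 7 lower, 11 higher and 2 equal, with a median of 0.04. The 18 without BNIP3 and PHB2 had the same median of 0.04. BNIP3L (NIX), the closest relative of BNIP3, gave 10.34 and 10.21, a difference of -0.13. FUNDC1, another receptor of the outer membrane, had 7.43 on both arrays. PINK1, the kinase that marks damaged mitochondria, differed by 0.05. MUL1, a ubiquitin ligase of the outer membrane, was 1.59-fold higher with 6.45 and 7.12, the highest difference over all 7 lists. USP30, a deubiquitinase that opposes mitophagy, differed by -0.30, from 5.48 to 5.18, the latter below the filter limit.

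The list of HIF subunits, their hydroxylases and the genes that HIF drives along with BNIP3 had 13 of 23 genes kept, 8 lower and 5 higher. The median was -0.08, or -0.045 over the 12 without BNIP3, of which 7 were lower and 5 higher. EPAS1, which encodes HIF-2 alpha, had the lowest difference at -0.30, from 10.51 to 10.21, and BNIP3 came next. DDIT4, an inhibitor of mTORC1, and VEGFA, the angiogenic growth factor, differed by 0.25 and 0.23, and EGLN1, the oxygen-sensing hydroxylase, by -0.16. No gene of this list differed by 1.5-fold.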

How the data were processed

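The deposited table gives each of 48226 probe sets a log2 value for either array. Per the submitters' processing notes, the authors used RMA with Transcriptome Analysis Console 4.0.2.15. These notes and the value range give the log2 scale. RMA, as commonly defined, makes array distributions alike, so a shift of all genes would not be seen. The 2 deposited columns were close but not identical, with medians over all probe sets of 4.07 for siCONTROL and 4.02 for siP62. Genome build and annotation version of the array are not stated in the sources used, and no gene coordinates are printed other than those of the RefSeq windows.

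Genes were named from the platform annotation (16098 probe sets with 1 symbol, 32128 unnamed) and symbols were updated by gene identifier through RefSeq, where all 16098 matched; promoter windows were found for all 6 genes. For a gene with several probe sets the one with the highest mean was used. Robust SDs are scaled median absolute deviations in 20 bins of like mean level. The arrays are 1 per group, so their number limits the precision and no test was run. The code was run on simulated data with planted differences well past 2-fold. That shows only that the code finds such differences, and says nothing of the error of these arrays. Python 3.11.15, pandas 2.3.3 and statsmodels 0.14.6 were used.

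Genes named were the 6 members; in each list the kept genes at 1.5-fold or more and the 4 with the largest absolute difference; paralogs and complex partners; the 3 genes nearest to SQSTM1; and control genes. Other list genes, markers and the 4 motifs were chosen after values were seen. The members and lists were chosen with earlier results of these data known.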

Additional observations from a re-analysis of the deposited data

How the results depend on the processing

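The 6 differences kept their direction when the median difference or a loess curve was subtracted, or when the columns were quantile normalized again. They moved by less than 0.22 on the log2 scale, the robust SD over kept genes. That tolerance is wider than the whole difference of BNIP3 (-0.21), so staying within it says little. With loess, OPTN went from -0.32 to -0.37 and BNIP3 from -0.21 to -0.25. Subtracting the median lowered every difference by 0.04 by construction, which could not reverse any of the 6. Averaging probe sets was also tried but could not change these 6 genes, since each had 1 probe set. SQSTM1, at -1.34 as deposited, was -1.39 with loess and -1.38 with quantile normalization. CYLD, at -1.04 as deposited, was -1.08 and -1.07. The medians of 2 lists changed sign around 0: the list of CYLD and ubiquitin signalling to NF-kB went from 0.03 to -0.01 with the median subtracted, -0.014 with loess and -0.0039 with quantile normalization, and mitophagy from 0.04 to -0.0016 with loess. The first of these subtracts 0.04 by construction, and for the others the cause was not tested. For the list medians, which include the 6 genes where listed, the alternatives also included no filter and a filter at the 70th percentile. Over all of them the median ranged from -0.17 to -0.11 for the selective autophagy receptors (-0.13 as deposited). It ranged from -0.09 to -0.05 for p62-binding proteins (-0.05) and from -0.06 to 0 for the KEAP1-NRF2 unit (-0.02). For the prohibitin list it ranged from 0.092 to 0.145 (0.145). For the HIF list it ranged from -0.12 to -0.045 (-0.08), where -0.045 came from averaged probe sets over 12 kept genes. Over all kept genes, 13 were 2-fold higher, against 25 without a filter and 8 with it at the 70th percentile. The 18 that were 2-fold lower became 27 and 16. A looser filter can only add genes and a stricter one only remove them, so these directions were set by construction. With the median or a loess curve subtracted, or quantile normalization, 22 were 2-fold lower and 11 higher. At 1.5-fold, 126 were lower and 164 higher by construction of the lower limit. No replicate could be left out, and no paired analysis was possible because each group held 1 array. No depth is known for arrays, and no detection call came with the values.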

Other observations

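Genes that hold the promoter motifs named above were counted over the whole array, as a description with no test. Of 6258 kept genes with a RefSeq window, 1189 held TGACNNNGC and had a median difference of 0.03, against 0.04 for all 6258. The 567 kept genes with the NF-kB consensus had a median of 0.05. At 2-fold lower were 2 of them, CYLD and CXCL5, a chemokine gene that went from 11.08 to 9.97, and none was 2-fold higher; both are named after their values were seen. These are 0.353% lower and 0% higher, near the 0.228% and 0.165% of all 7896 kept genes. That set includes genes without a RefSeq window, and the shares over the 6258 alone were not counted. The 2009 kept genes with ACGTG and the 792 with CACGTG had medians of 0.04 and 0.05. CYLD and DCAF12, a cullin substrate receptor (-1.05), and SPOP, a cullin substrate adaptor (-1.08), were the 3 genes with TGACNNNGC at 2-fold lower, while 3 others with that core, WSB1, ZMPSTE24 and RPL22L1, were 2-fold higher, the last with a siCONTROL value (4.96) that did not reach the limit. Either count is 0.252% of the 1189, again near the share over all kept genes, and nothing particular to the motif genes is read from it.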
